A study of Mus musculus with 6 samples.

Results

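The genes described here are 59 homeobox genes outside the Hox clusters, from 14 families: the Dlx, Lhx, Nkx, Irx, Pitx, Msx, Emx, Gbx, Meis, Pbx, Barx, Vax and Alx genes and the Six-family genes. They are the genes, of 19938 measured, whose symbol is one of these family names followed by a number, and each was read by 1 probe set (a group of array probes for 1 transcript) with a single gene symbol. Cultures of mouse iPSCs, which are fibroblasts turned back to a pluripotent state, were read on 6 gene arrays, 3 labelled primed and 3 labelled naive. Primed cells grew in medium conditioned by mouse embryonic fibroblasts with basic FGF at 8 ng/ml, on feeder cells or matrigel. Naive cells grew in DMEM with 15% serum, further supplements and LIF, a cytokine that sustains self-renewal, at 1000 U/ml. By their titles the primed lines came from adult dermal fibroblasts and the naive lines from embryonic fibroblasts, whereas the source label gives embryonic fibroblasts for all 6. If the titles hold, culture state and origin of the line cannot be told apart. The labels used here do not state the number of lines or clones, nor what was repeated between biological replicates. The p-values therefore cover the spread among these 6 arrays, which may be partly technical.

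Homeobox genes encode transcription factors that bind DNA through a conserved homeodomain and give cells of the embryo their regional identity. Irx, Gbx, Emx, Lhx, Nkx, Six-family and Vax proteins pattern the brain, eye and neural tube, Dlx, Msx, Barx, Pitx and Alx proteins the face, teeth and limbs. Meis, Pbx and Irx proteins belong to the TALE class, whose homeodomain carries an extra loop of amino acids. Meis and Pbx proteins act as DNA-binding partners of Hox and other homeodomain proteins. Many of these genes are kept silent or low in pluripotent cells by Polycomb complexes at CpG-rich promoters.

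The deposited values are log2 intensities made with RMA, and every difference below is primed minus naive on that scale. A gene counted as changed when the limma test gave an adjusted p under 0.05 over all 19938 genes. Background was set on each array at the level that 95% of 1178 odorant and pheromone receptor genes did not exceed, 6.95 to 7.02. Of 10 pluripotency markers, 9 lay above background in both groups, and Zfp42, a marker of naive cells, lay in background in both. Pou5f1, Sox2, Nanog, Sall4, Tdgf1 and Dppa4 were lower in primed cells, and their part in the results below was not tested. Other genes of pluripotent state went against the labels. Esrrb, a factor of naive cells, was at 11.24 ± 0.02 in primed and 8.25 ± 0.11 in naive cells (SD, n = 3 each), and Fgf5, a marker of primed cells chosen after its value was seen, was at 8.90 ± 0.03 in primed and 10.61 ± 0.09 in naive cells. Otx2, another gene of primed cells, went with the labels (0.92). Primed and naive therefore stand for the arrays so labelled throughout. If labels or columns had been exchanged between the groups, every direction given here would turn round and each group's medium would be that of the other, which was not tested.

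To show the DNA beside 4 members with large or opposed differences (Meis2, Meis1, Msx2 and Irx3), the 250 bases before their RefSeq start sites in assembly GRCm38.p6 are printed 5′ to 3′ on the gene's strand, with each CpG dinucleotide in capitals. All 4 genes lie on the minus strand. The Meis2 window is chr2:116064620-116064869, the Meis1 window chr11:19018970-19019219, the Msx2 window chr13:53472781-53473030 and the Irx3 window chr8:91801655-91801904.
Meis2: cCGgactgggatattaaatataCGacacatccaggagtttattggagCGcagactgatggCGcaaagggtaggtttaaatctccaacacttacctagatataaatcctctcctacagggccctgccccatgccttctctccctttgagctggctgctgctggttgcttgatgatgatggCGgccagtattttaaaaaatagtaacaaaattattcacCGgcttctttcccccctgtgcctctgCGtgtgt
Meis1: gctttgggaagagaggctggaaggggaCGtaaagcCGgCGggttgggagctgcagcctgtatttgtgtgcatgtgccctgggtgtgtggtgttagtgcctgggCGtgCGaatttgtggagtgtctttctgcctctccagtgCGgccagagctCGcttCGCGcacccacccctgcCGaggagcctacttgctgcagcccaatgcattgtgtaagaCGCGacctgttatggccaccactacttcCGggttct
Msx2: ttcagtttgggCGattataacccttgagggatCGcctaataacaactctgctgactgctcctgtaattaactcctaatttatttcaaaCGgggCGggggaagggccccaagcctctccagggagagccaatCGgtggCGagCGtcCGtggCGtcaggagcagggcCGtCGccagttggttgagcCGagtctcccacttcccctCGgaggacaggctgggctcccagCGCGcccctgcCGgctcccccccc
Irx3: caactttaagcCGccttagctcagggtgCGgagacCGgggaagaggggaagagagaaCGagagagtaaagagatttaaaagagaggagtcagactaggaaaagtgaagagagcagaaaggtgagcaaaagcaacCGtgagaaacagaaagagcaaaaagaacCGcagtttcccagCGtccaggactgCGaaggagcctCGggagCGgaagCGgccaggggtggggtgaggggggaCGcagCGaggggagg

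The Meis2 window held 7 CpG dinucleotides, the Meis1 window 13, the Msx2 window 16 and the Irx3 window 13. RefSeq promoters were matched for 42 of the 59 members, with 47 start sites among them. Their median GC content was 62.8%, against 52.4% over 32851 promoters of the whole table, and the median ratio of observed to expected CpG was 0.70, against 0.37. By their medians the members were CpG-rich whether or not they differed between the groups. The median ratio was 0.75 for the 10 matched members higher in primed cells and 0.68 for the 5 lower in primed cells. It was 0.70 for the 27 that did not pass. Single windows varied. Meis2 had a GC content of 47.6% and a ratio of 0.50, and the ratio was 0.31 for Lhx8 and 0.22 for Lhx9. Of the motifs sought on both strands, TGACAG (the core bound by MEIS and TGIF proteins) was in 17% of member promoters and 15.9% of all promoters. TAATTA (a homeodomain core) was in 2.13% and 4.84%, CTTTGAT (a TCF and LEF core) in 4.26% and 3.21%, and TTCNNNGAA (a STAT core) in 0% and 7.02%. In the members these 3 shares stand for 1, 2 and 0 of 47 promoters. Such small counts, in promoters not matched for GC content, cannot show a lack or excess of sites. Each motif was counted on its own, whether or not it overlapped another. The only match in the printed windows was a TAATTA in Msx2, with its first base at -187 from the start.

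Across the families, 13 of the 59 members were higher and 5 were lower in primed cells. The other 41 did not pass. The background rates are high in this comparison, since 44.5% of all genes passed, 21.8% higher and 22.7% lower in primed cells. The 18 members that passed were 30.5% of the members, fewer than that background. The share that was higher in primed cells (22%) was close to its background, and the share that was lower (8.47%) was below its own. The median difference was 0.05 over the members and 0.00 over all genes tested. After each array's median was subtracted the member median was -0.02 and the calls were 10 higher and 6 lower, so the sign of the member median depends on the scaling. The median of all genes was then -0.07, with 3439 higher and 6325 lower. A difference of at least 0.5 was reached by 7 members (Meis2, Pbx3, Six5, Irx3, Pbx4, Irx5 and Msx2), or 11.9%, against 13.9% of all genes. At least 2-fold differences were found for Meis2 and Msx2 alone, 3.39% of members against 3.55% of all genes.

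**Figure D1:**
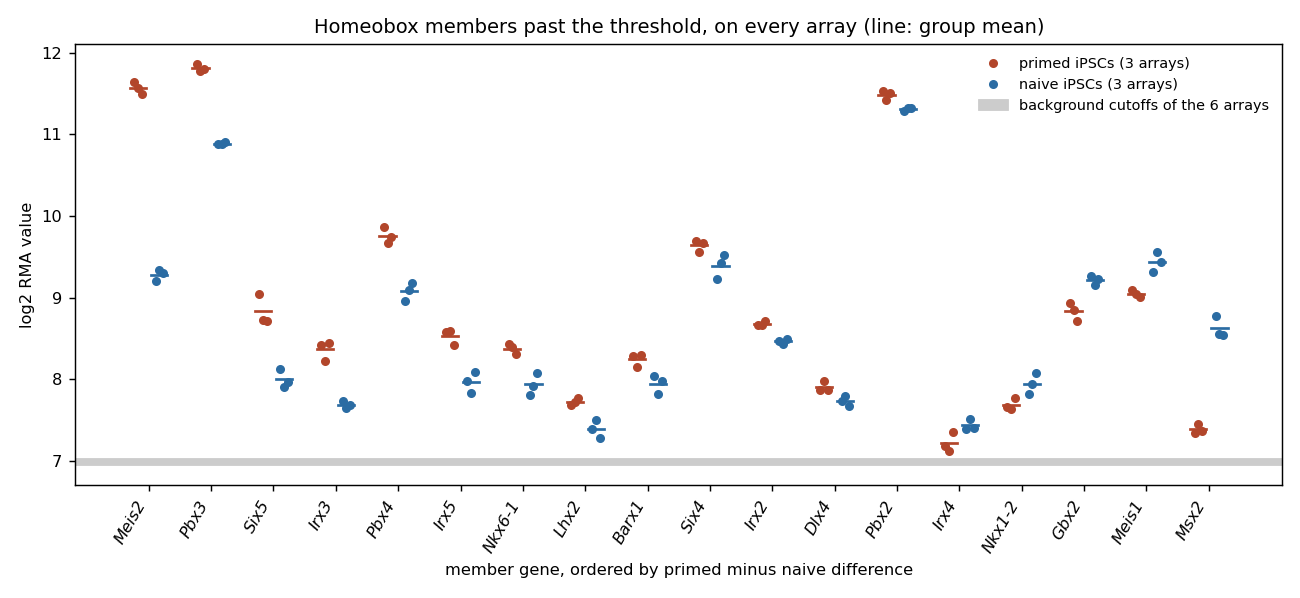
log2 RMA values of the 18 members past the threshold on each of the 3 primed arrays (red) and 3 naive arrays (blue), with lines for group means and a grey band for the background cutoffs of 6.95 to 7.02. The groups did not overlap for any of the 18, and the gap was widest for Meis2 (11.57 in primed and 9.28 in naive cells on average) and Msx2 (7.38 in primed and 8.62 in naive cells).

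Meis2 and Pbx3 had the largest rises of the 59 members. Meis2, whose product works with PBX proteins in the limb, heart and developing brain, had values of 11.64, 11.57 and 11.49 on primed arrays, against 9.20, 9.34 and 9.30 on naive arrays. It rose by 2.29 (SE 0.06, limma adjusted p = 3e-10), a 4.89-fold higher signal in primed cells. Every primed array lay above every naive array by far more than the spread within a group. Its paralog Meis1, best known from blood stem cells and leukaemia, read 9.09, 9.05 and 9.01 in primed cells and 9.31, 9.56 and 9.44 in naive cells. It fell by 0.39 (SE 0.07, adjusted p = 0.00049), so that the pair differed in opposite directions. For the third paralog, Meis3, primed values of 9.0, 8.96 and 8.91 stood beside naive values of 8.90, 8.90 and 8.87. The Meis3 difference of 0.07 did not pass (95% interval -0.05 to 0.18).

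All 3 measured Pbx genes were higher in primed cells, the only family with at least 3 measured genes of which this held. Among all genes 21.8% were higher. Pbx3, a Hox partner in hindbrain and limb patterning, gave 11.86, 11.78 and 11.80 on primed arrays and 10.88, 10.88 and 10.90 on naive arrays. Its difference was 0.93 (SE 0.05, adjusted p = 6.5e-08), or 1.91-fold. Pbx4, known mainly from the testis, gave 9.87, 9.67 and 9.74 in primed cells and 8.96, 9.09 and 9.18 in naive cells, a difference of 0.68 (SE 0.07, adjusted p = 1.1e-05). Both groups of Pbx4 values were well apart. Pbx2, which is broadly expressed, read 11.53, 11.42 and 11.50 in primed and 11.29, 11.32 and 11.32 in naive cells, a difference of 0.17 (adjusted p = 0.023). The Pbx2 call was lost after subtraction of array medians (0.10, adjusted p = 0.14) and without primed replicate 1 or 3 or naive replicate 1 or 3 (adjusted p of 0.054 to 0.072). The family median was 0.68 for the Pbx genes and 0.07 for the Meis genes, against 0.05 for all members and 0.00 for all genes.

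**Figure D2:**
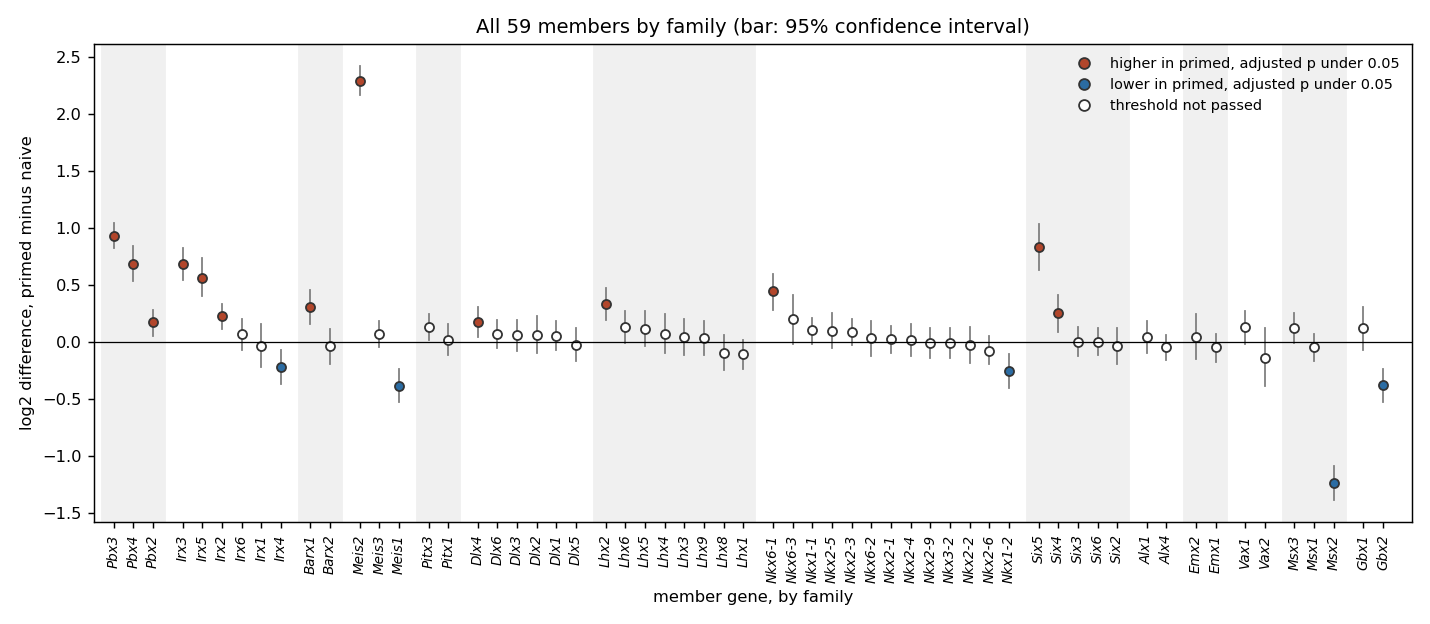
log2 differences (primed minus naive) of the 59 members, grouped by family in order of the family median, with 95% confidence intervals; red marks members higher and blue members lower in primed cells at an adjusted p under 0.05. Most members lie close to 0, and Meis2 (2.29), Pbx3 (0.93), Six5 (0.83) and Msx2 (-1.24) stand farthest from it.

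The Irx genes lie in a pair of clusters. Irx3 and Irx5, Iroquois factors of the neural plate, heart and limb, lie near each other on chromosome 8 in assembly GRCm38.p6. Irx3 had values of 8.42, 8.23 and 8.45 on primed arrays, against 7.74, 7.65 and 7.68 on naive arrays, and rose by 0.68 (SE 0.07, adjusted p = 5.7e-06). Irx5 had 8.58, 8.59 and 8.42 on primed arrays, against 7.98, 7.83 and 8.09 on naive arrays, and rose by 0.56 (SE 0.07, adjusted p = 7e-05). In both genes each primed value exceeded each naive value. Irx6, the next measured gene beyond Irx5, read 7.57, 7.73 and 7.68 in primed and 7.65, 7.5 and 7.64 in naive cells, with overlapping groups and a difference of 0.07 that did not pass (adjusted p = 0.44).

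In the cluster on chromosome 13, Irx2 was higher in primed cells by 0.22 (8.66, 8.66 and 8.71 in primed, 8.47, 8.43 and 8.49 in naive cells, adjusted p = 0.004). Its neighbour Irx4, a factor of the heart ventricle, had 7.18, 7.12 and 7.36 on primed arrays and 7.39, 7.51 and 7.41 on naive arrays, and fell by 0.22 (adjusted p = 0.022). The Irx4 call was lost without primed replicate 1 or 2 or naive replicate 2 (adjusted p of 0.071 to 0.096). Irx1, the remaining gene there, did not pass (-0.04, adjusted p = 0.78). Over the 6 Irx genes 3 were higher and 1 was lower, beside 21.8% higher and 22.7% lower among all genes. The other 2 did not pass, and the median difference of the 6 was 0.14. That median was 0.07 with array medians subtracted. With genes of low signal left out it was 0.56, the value of Irx5, but this filter also removed Irx4, the gene that fell.

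The genes between and around the members were read from their order in GRCm38.p6. Crnde, a long noncoding RNA gene beside Irx5, rose with it by 0.77 (adjusted p = 3.2e-05), with naive values of 6.86, 7.13 and 7.26 at the edge of background. Irx3os, an RNA gene named as the opposite strand of Irx3, differed by 0.14 and did not pass (adjusted p = 0.07). Fto, which adjoins Irx3, differed by 0.03 (adjusted p = 0.70), and Rpgrip1l beyond it fell by 0.47. Of the 10 measured genes nearest Irx3, 4 were higher, the member Irx5 among them, and 3 were lower. Such counts stand beside 21.8% higher and 22.7% lower among all genes. Of the 10 genes nearest Meis2 on chromosome 2, 0 were higher and 6 were lower in primed cells, among them Rasgrp1 (-1.39) and Spred1 (-0.55). Around Msx2, 3 genes were lower, among them Ror2 (-0.88) and Sptlc1 (-0.65), and 4 were higher, among them Auh (0.91). For the 18 members that passed, at most 5 of the 10 nearest genes moved the same way as the member (Meis1), and 9 pairs of members were direct neighbours in gene order. In 0 of these pairs did both genes pass in the same direction, and in 4 neither passed. Irx3 and Irx5, which both rose, were not counted as a pair because Irx3os and Crnde lie between them. So few pairs cannot show whether neighbouring members moved together.

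**Figure D3:**
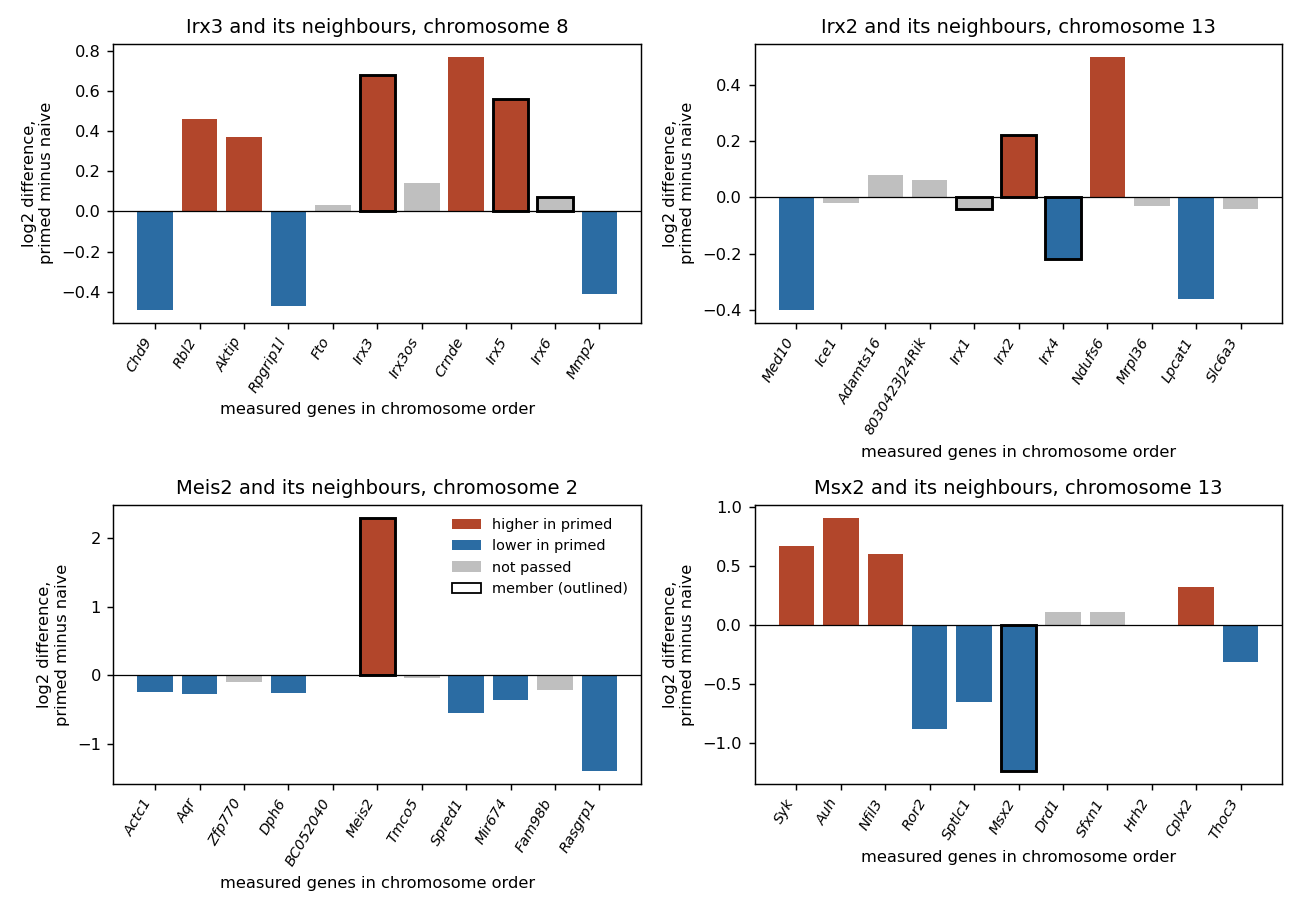
log2 differences (primed minus naive) of Irx3, Irx2, Meis2 and Msx2 and of the 5 measured genes on each side in chromosome order; outlined bars are members, and grey bars did not pass. Irx3, Crnde and Irx5 rose while Irx6 and Fto did not pass. Of the 10 neighbours of Meis2, 0 passed as higher, against 21.8% of all genes.

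Msx2 had the largest fall. It encodes a repressor that responds to BMP signals in limb buds, neural crest and trophoblast. Primed arrays read 7.34, 7.45 and 7.37, and naive arrays 8.78, 8.55 and 8.54, a fall of 1.24 (SE 0.07, adjusted p = 8.5e-08) or a 2.36-fold higher signal in naive cells. The primed values came close to the background of 6.95 to 7.02, where RMA compresses differences. Msx1, its close paralog, was at 8.03, 8.02 and 8.01 in primed and 8.14, 8.02 and 8.05 in naive cells, and its difference of -0.05 did not pass (95% interval -0.17 to 0.07). Msx3, which is restricted to the dorsal neural tube in mice, had 8.17, 7.99 and 8.01 in primed and 7.90, 7.93 and 7.98 in naive cells (0.12, adjusted p = 0.14).

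Gbx2, a gene of the midbrain-hindbrain border that also sustains self-renewal of mouse embryonic stem cells downstream of LIF, had 8.94, 8.85 and 8.71 in primed cells and 9.26, 9.16 and 9.23 in naive cells. It fell by 0.38 (SE 0.07, adjusted p = 0.00049), with no overlap. Gbx1 did not pass (0.12, 95% interval -0.07 to 0.30). Nkx1-2, expressed in the caudal epiblast and tailbud, read 7.66, 7.64 and 7.77 in primed and 7.82, 7.94 and 8.08 in naive cells, a fall of 0.26 (adjusted p = 0.0097). Among the other 12 Nkx genes, Nkx6-1, a factor of ventral neural progenitors and pancreatic beta cells, was the one that passed. Its values were 8.43, 8.39 and 8.31 in primed and 7.81, 7.92 and 8.08 in naive cells, and it rose by 0.44 (SE 0.07, adjusted p = 0.00035). Over the 13 Nkx genes 1 was higher and 1 lower, beside 21.8% higher and 22.7% lower among all genes. Nkx2-9, with the highest signal of the family, was nearly level at 10.13 ± 0.07 in primed and 10.14 ± 0.06 in naive cells (SD, n = 3 each). The lung and thyroid gene Nkx2-1 (0.02), the ventral spinal cord gene Nkx2-2 (-0.03) and the heart gene Nkx2-5 (0.09) did not pass.

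Of Six2, Six3, Six4, Six5 and Six6, transcription factors of eye, kidney, forebrain and muscle development, Six5 and Six4 were higher in primed cells. These were 2 of 5 genes, beside 21.8% higher among all genes. Six5 had 9.05, 8.73 and 8.72 on primed arrays and 8.13, 7.90 and 7.97 on naive arrays, and rose by 0.83 (SE 0.09, adjusted p = 1.6e-05). Dmpk, the kinase gene next to Six5, moved the other way, by -0.54 (adjusted p = 4.2e-05). Six4 gave 9.69, 9.56 and 9.67 in primed and 9.23, 9.43 and 9.52 in naive cells, a difference of 0.25 (adjusted p = 0.019). The Six4 call was lost with array medians subtracted (0.18, adjusted p = 0.077) and without primed replicate 1 or 3 or naive replicate 1 (adjusted p of 0.054 to 0.069). Six2, Six3 and Six6, known from kidney progenitors, forebrain and eye, had differences between -0.04 and 0.00 and did not pass.

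Single members passed in the Lhx (1 of 8), Barx (1 of 2) and Dlx (1 of 6) families, against 44.5% of all genes. Lhx2, a LIM-homeodomain gene of the forebrain and eye field, had 7.68, 7.72 and 7.77 in primed and 7.39, 7.5 and 7.28 in naive cells, and rose by 0.33 (SE 0.06, adjusted p = 0.0011). The other 7 Lhx genes did not pass, and Lhx5, Lhx8 and Lhx9 lay in background on all 6 arrays. Lhx4, with the highest Lhx signal, was at 8.30 ± 0.11 in primed and 8.23 ± 0.13 in naive cells (SD, n = 3 each). Barx1, a stomach and molar gene, read 8.28, 8.15 and 8.30 in primed and 8.04, 7.82 and 7.98 in naive cells, a rise of 0.30 (adjusted p = 0.0041), whereas Barx2 did not pass (-0.04). Dlx4, expressed in placenta and branchial arches, had 7.87, 7.98 and 7.87 in primed and 7.74, 7.8 and 7.67 in naive cells (0.17, adjusted p = 0.034). Its call was lost with array medians subtracted (0.10, adjusted p = 0.20), with quantile normalization (0.13, adjusted p = 0.097) and without primed replicate 2 or naive replicate 1 or 3 (adjusted p of 0.063 to 0.14). Of the remaining Dlx genes, which pattern jaws and forebrain interneurons, Dlx3 had the highest signal (8.46 ± 0.05 in primed and 8.40 ± 0.11 in naive cells, SD, n = 3 each) and none passed.

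In the Alx, Emx, Pitx and Vax families limma called 0 of 8 members, against 44.5% of all genes. Beside 9892 of all 19938 genes, 1 of the 8 had an unadjusted p under 0.05. That gene was Pitx3, of midbrain dopamine neurons and lens, with 8.27, 8.31 and 8.32 in primed and 8.23, 8.12 and 8.17 in naive cells (0.13, adjusted p = 0.075). It passed when genes of low signal were left out (adjusted p = 0.04) or arrays were weighted (adjusted p = 0.037). Without naive replicate 1, Vax1 passed as well (0.19, limma adjusted p = 0.04). The cortical gene Emx2 lay in background on all 6 arrays, and Emx1 differed by -0.05. Vax1 and Vax2, of the optic nerve and ventral retina, differed by 0.13 and -0.14, Pitx1 of the hindlimb by 0.01, and the craniofacial genes Alx1 and Alx4 by 0.04 and -0.05.

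The differences of the 41 members that did not pass ran from -0.14 to 0.20, and their 95% intervals from -0.39 to 0.41. RMA compresses differences at low signal. Of the 59 members, 51 exceeded the background cutoff on all 6 arrays, 4 on some arrays and 4 (Emx2, Lhx5, Lhx8 and Lhx9) on none. All 18 members that passed were above it on all 6 arrays. Groups did not overlap for 24 members (40.7%), 17 with primed above and 7 with primed below naive, against 52.9% of all genes. Fewer cells with a transcript and less of it per cell cannot be told apart in these bulk cultures.

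Homeobox genes outside the 14 families were read beside the members. In a list of 64, of which 57 were measured, primed cells had 13 higher and 4 lower, and 40 did not pass, with a median difference of 0.03. Among all genes 21.8% were higher and 22.7% lower. With array medians subtracted the split was 12 higher and 10 lower, or 54.5% of the calls higher against 76.5%, while over all genes that share was 35.2% against 49.0%. With genes of low signal left out 2 were lower. Pax6, of the neural plate and eye, rose by 2.29, Prox1, of lens and lymphatic cells, by 1.41, and Satb1, a chromatin organiser, by 1.30. The caudal gene Cdx4 fell by 1.54 (7.5 ± 0.09 in primed and 9.04 ± 0.12 in naive cells, SD, n = 3 each). Naive values of Pax6 lay in background, and Pou4f1, counted as higher, lay in background on all 6 arrays.

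Genes whose proteins partner the members were read as well. Of 26 such genes, 11 were higher and 7 lower in primed cells and 8 did not pass, beside 21.8% higher and 22.7% lower among all genes. Their median size of difference was 0.27, against 0.09 for the members and 0.14 for all genes. With array medians subtracted the split was 9 higher and 9 lower, 50% of the calls higher against 61.1%, with the same 35.2% against 49.0% over all genes. Lmo1, Lmo3 and Dach2, counted as higher, lay in background on all 6 arrays, and with genes of low signal left out 7 partner genes were higher. Tle4, a Groucho co-repressor recruited by many homeodomain proteins, fell by 1.18 (10.51 ± 0.01 in primed and 11.69 ± 0.04 in naive cells, SD, n = 3 each). Rlim, a ubiquitin ligase that degrades the LIM cofactor LDB1, fell by 0.83, while Ldb1 itself did not pass. Among genes of the EYA and DACH cofactors, Dach1 rose by 1.19 and Eya4 by 0.90, whereas Eya1 fell by 0.53. Dach1 lay in background in naive cells. Among relatives of the Meis genes, Pknox2 rose by 0.80 (8.39 ± 0.13 in primed and 7.58 ± 0.09 in naive cells, SD, n = 3 each), and Pknox1 did not pass (-0.12, adjusted p = 0.11).

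**Figure D4:**
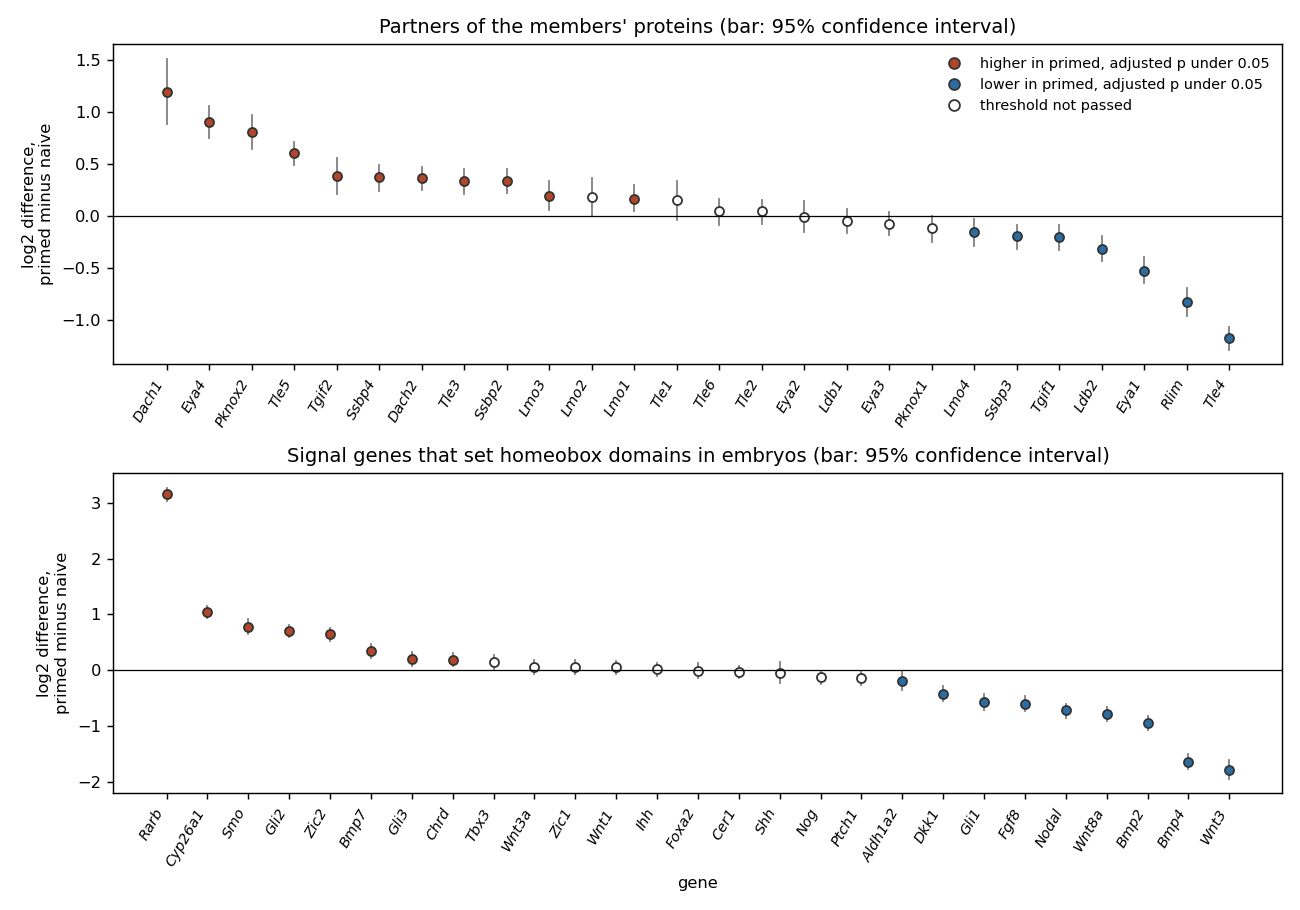
log2 differences (primed minus naive) with 95% confidence intervals for 26 genes of partner proteins (top) and 27 signal genes (bottom), each ordered from highest to lowest; red marks genes higher and blue genes lower in primed cells at an adjusted p under 0.05. Dach1 (1.19) and Tle4 (-1.18) bound the upper panel, Rarb (3.15) and Wnt3 (-1.79) the lower.

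Genes of the signals that place homeobox expression domains in embryos were also read. Of 27 measured, 8 were higher and 9 lower in primed cells, while 10 passed in neither direction. Among all genes 21.8% were higher and 22.7% lower. The split was 6 higher and 11 lower with array medians subtracted, 35.3% of the calls higher against 47.1%, close to the 35.2% against 49.0% over all genes. Aldh1a2, counted as lower, lay in background on all 6 arrays. The BMP ligand gene Bmp4 fell by 1.64 (8.38 ± 0.10 in primed and 10.02 ± 0.04 in naive cells, SD, n = 3 each), and Wnt3, a WNT ligand gene of the primitive streak, fell by 1.79. The BMP ligand genes did not move one way. Bmp2 was lower in primed cells, where its values lay in background (6.52 ± 0.06 in primed and 7.47 ± 0.05 in naive cells, SD, n = 3 each), and Bmp7 rose by 0.34 (10.88 ± 0.08 in primed and 10.54 ± 0.02 in naive cells, SD, n = 3 each). The retinoic acid receptor gene Rarb rose by 3.15 and Cyp26a1, which breaks down retinoic acid, by 1.04. Of the hedgehog genes, Smo rose by 0.78 and Gli2 by 0.70, Gli1 fell by 0.57, and Shh, the ligand, did not pass. Whether these signals took part in the member differences was not tested.

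Markers of other cell types moved between the groups too. For scale, 21.8% of all genes were higher and 22.7% lower in primed cells. Of 11 measured genes of neural progenitors and neurons, 9 were higher in primed cells and 0 lower, and their mean was 8.77 to 8.85 on primed and 8.14 to 8.21 on naive arrays. All 6 trophoblast genes were lower in primed cells (means of 7.68 to 7.74 on primed and 8.61 to 8.66 on naive arrays). Of these, Elf5 (6.81 in primed and 7.07 in naive cells) lay in background in primed cells and above it on only 2 naive arrays. Among 9 mesoderm genes 3 were lower and 1 higher (7.54 to 7.58 on primed and 7.84 to 7.93 on naive arrays). The list's median difference was -0.09, and its largest fall was that of Eomes (-2.20). In the endoderm list, 0 of 6 genes passed in limma, with 1 at an unadjusted p under 0.05. In the fibroblast list, which covers cells of origin and feeders, 7 of 17 were lower and 2 higher. Its mean was 7.48 to 7.54 on primed and 7.48 to 7.53 on naive arrays, Dcn was higher in primed cells by 2.89, and Lum, Fap, Postn, Tcf21, Prrx1 and S100a4 lay in background in both groups. The part of these cell types in the member differences was not tested.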

How the data were processed

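Total RNA of 6 iPSC cultures was measured on 1-colour gene arrays. The deposited values are log2 intensities that the authors made with RMA; per the submitters' processing notes the software was Partek 6.6. Its options and the genome build are not stated there. Of 35556 probe sets, 21789 had 1 gene symbol in GEO's platform annotation, 1621 had several (not used) and 12146 are not named here. Current symbols and gene order came from RefSeq (GRCm38.p6, 21698 probe sets matched by gene ID). The brightest probe set stood for each of 19938 genes. All members had 1 probe set.

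Groups were taken from the cell type label and compared by lmFit and eBayes of limma 3.58.1 (R 4.3.3, two-sided, no covariates), adjusted by Benjamini-Hochberg over all genes. Tables were made in Python 3.11.15. The fit was tested on simulated data with 50 shifted genes at each size. It recovered 26% of shifts of 0.25, 90% of 0.5 and 98% of 1.0. Far fewer genes were shifted there than passed in the real arrays, so recovery here may differ. Array number limits the precision. Alternatives were array medians, quantile normalization, a filter at the 40th percentile of signal, array weights, an intensity trend, means over probe sets, a replicate block, a threshold of 0.01 and leaving out each array.

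The members and lists were chosen with earlier results of these data known. The naming rule took members past the threshold without overlap, in each family the members with the largest difference and highest mean, and 4 genes with the largest difference per other list, and allowed neighbours on the chromosome. Other genes named from the lists, and Fgf5, Pbxip1, Dlx1as and Six3os1, were chosen after their values were seen. Promoter sequences are RefSeq's.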

Additional observations from a re-analysis of the deposited data

How the results depend on the processing

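Groups of 3 arrays are too small to test for a stray array, and low signal over background limits what can be read for the 8 members not above it on all arrays. Of 232 values of the 18 members that passed over the alternatives that could change them, 211 kept their call, 21 lost it and 0 reversed; the losses were all in Dlx4, Pbx2, Six4 and Irx4. The other 14 kept their call in every alternative run for them, and Lhx2 and Irx4 were not tested with genes of low signal left out. Some members that had not passed gained a call. Besides Pitx3, Lhx1 was lower with array medians subtracted (-0.18, limma adjusted p = 0.024). Without naive replicate 1, Lhx6 (0.19, adjusted p = 0.027), Nkx6-3 (0.29, adjusted p = 0.024) and Vax1 (0.19, adjusted p = 0.04) were higher in primed cells. Means over probe sets could change no member, since each had 1 probe set. Without each array in turn, 11 to 13 members were higher and 4 to 5 lower in primed cells. Other homeobox genes gave 12 to 15 and 3 to 5, partner genes 9 to 11 and 6 to 8, and signal genes 7 to 9 and 8 to 9. The replicate numbers in the titles did not pair the arrays (correlations of deviations between arrays of the same number of -0.11, 0.00 and -0.02), and a fit with the replicate number as a block gave 13 members higher and 5 lower, with 14 and 4 of the other homeobox genes, 10 and 7 of the partner genes and 8 and 8 of the signal genes.

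With array medians subtracted, which moves the median of all genes to -0.07, 10 other homeobox genes were lower in primed cells, and family medians became -0.08 (Alx), -0.01 (Dlx), 0.07 (Irx), 0.00 (Meis), -0.12 (Msx), -0.05 (Nkx), 0.61 (Pbx) and 0.00 (Pitx). Quantile normalization gave 0.00 (Meis), -0.10 (Msx) and 0.01 (Pitx), and array weights 0.63 (Pbx). With genes of low signal left out, 36 members remained, 2 other homeobox genes were lower and 7 partner genes higher. Medians were then 0.30 (Barx), 0.11 (Dlx), -0.38 (Gbx), 0.56 (Irx) and 0.25 for the Six-family genes. Each covers only the members that remained. The Barx value is that of Barx1, the Gbx value that of Gbx2, and the Irx median leaves out Irx4. Leaving out each array moved the Pbx median between 0.62 and 0.74 and the Dlx median between 0.01 and 0.11. The cause of the changes in the other settings was not tested.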

Other observations

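Partner genes that encode SSBP cofactors of LDB complexes also differed. Ssbp2 and Ssbp4 were higher in primed cells by 0.33 and 0.37, and Ssbp3 was lower by a difference of -0.20. Among TALE repressors Tgif2 was higher (0.38) and Tgif1 lower (-0.21), so that these paralogs differed in opposite directions. The other Groucho genes that passed were Tle3 (0.33) and Tle5 (0.60), both higher in primed cells, against the fall of Tle4. Pbxip1, which encodes a PBX-binding protein, was higher by 0.25 (8.62 ± 0.04 in primed and 8.36 ± 0.03 in naive cells, SD, n = 3 each, limma adjusted p = 0.0015). RNA genes named for their place beside a member were mostly flat: Dlx1as differed by -0.01 and Six3os1, which lay in background in both groups, by 0.07.

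Among other homeobox genes, En2, of the midbrain-hindbrain border, rose by 0.80 with naive values in background, and Otx2, of the forebrain and epiblast, by 0.92. The CUT-class genes Cux1 (0.48) and Cux2 (0.45) were higher in primed cells, as were Phox2a (0.35), Dbx1 (0.42), Lmx1b (0.28) and Isl1 (0.30), while Isl2 was lower (-0.26). Cdx2 and Mixl1 were lower along with Cdx4 (-0.37 and -0.21).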
